A study of Mus musculus with 16 samples.

Results

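Dendritic cells given both extra salt and LPS were compared with cells given neither. Marrow of C57BL/6 mice was cultured in 10 ng/mL of GM-CSF, a growth factor under which precursors become dendritic cells, macrophages and granulocytes. In the doubly treated group, NaCl had raised the medium to 450 mOsm/L from day 3, and the cells were replated on day 7 for 6 h with 10 ng/mL LPS. The untreated group stayed at 290 mOsm/L and was replated for the same 6 h without LPS. Each group was measured on 4 arrays, 1 for each of mice 1 to 4, so 8 of the 16 arrays of the series belong to the comparison. The other 8 arrays hold the same mice at 450 mOsm without LPS and at 290 mOsm with LPS, and they were used to read how each stimulus contributed. The ages of the mice were not given in the sources used here. Array values are log2 signals, on which a difference of 1 is a 2-fold change.

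A few marker genes, chosen after their values were seen, describe the cells and are not a check of their label. On average, Cd74, the chaperone of MHC class II, stood at 13.60 in cells given salt and LPS and at 13.60 in untreated cells. Itgax, which encodes CD11c, stood at 11.41 with both stimuli and at 12.13 without. Of 12 dendritic cell markers tested, 2 had a mean below 6.83, the level used to filter dim probe sets, in each of the compared groups. The same cultures also carried macrophage genes at high level, with Adgre1 (F4/80) at 11.90 with both stimuli and 12.07 without, and neutrophil granule genes. Among the 10236 genes tested, the SD of the difference between a pair of arrays was 0.863 to 0.942 between the groups and 0.128 to 0.167 within them.

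A rise in external salt draws water out of cells, and mammalian cells answer it largely through the transcription factor NFAT5, which turns on transporters and enzymes that load the cell with organic osmolytes. LPS is sensed by TLR4 with CD14 and MD-2. One branch of that receptor's signalling runs through MyD88 to NF-kB and AP-1 and turns on cytokine genes. The other runs through TRIF to IRF3, which starts interferon beta and with it the interferon-stimulated genes. In dendritic cells LPS also sets off maturation, in which costimulatory molecules and CCR7 increase and uptake receptors decrease.

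Promoter sequences of 4 genes that stand for the main groups of change are shown first, from RefSeq (GRCm38.p6), each a 300-base window that spans the gene's start, 5′ to 3′ on the gene's strand. Il6 had the highest change of all, Ifit1 is an interferon-stimulated gene, and Bnip3 and Ankrd37 rose at least 2-fold with both stimuli and changed by less than 0.5 with either alone. Capitals mark matches on either strand to 1 short motif per gene: GGG, any 2 bases and TTTCC for NF-kB in Il6, GAAA, any 2 bases and GAAA for the interferon-stimulated response element in Ifit1, and ACGTG for the hypoxia response element in Bnip3 and Ankrd37. The windows are chr5:30012864-30013163 (plus strand) for Il6, chr19:34640639-34640938 (plus) for Ifit1, chr7:138909457-138909756 (minus) for Bnip3 and chr8:45999801-46000100 (minus) for Ankrd37.
Il6: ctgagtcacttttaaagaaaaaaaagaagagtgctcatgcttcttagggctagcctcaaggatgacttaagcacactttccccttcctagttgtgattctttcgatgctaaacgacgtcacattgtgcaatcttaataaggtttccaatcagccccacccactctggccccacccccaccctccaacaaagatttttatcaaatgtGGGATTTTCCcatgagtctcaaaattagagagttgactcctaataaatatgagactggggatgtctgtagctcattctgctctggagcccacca
Ifit1: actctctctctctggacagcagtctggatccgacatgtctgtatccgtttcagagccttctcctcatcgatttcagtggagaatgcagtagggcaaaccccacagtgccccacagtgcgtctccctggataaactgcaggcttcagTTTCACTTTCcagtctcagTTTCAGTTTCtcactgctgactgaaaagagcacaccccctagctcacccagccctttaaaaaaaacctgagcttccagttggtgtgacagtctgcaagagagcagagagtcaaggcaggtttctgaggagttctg
Bnip3: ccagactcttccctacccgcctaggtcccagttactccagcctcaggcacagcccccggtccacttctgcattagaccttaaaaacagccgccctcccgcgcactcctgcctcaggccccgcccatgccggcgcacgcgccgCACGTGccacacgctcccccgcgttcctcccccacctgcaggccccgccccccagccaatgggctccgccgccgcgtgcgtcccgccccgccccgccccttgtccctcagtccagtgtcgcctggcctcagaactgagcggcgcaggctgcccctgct
Ankrd37: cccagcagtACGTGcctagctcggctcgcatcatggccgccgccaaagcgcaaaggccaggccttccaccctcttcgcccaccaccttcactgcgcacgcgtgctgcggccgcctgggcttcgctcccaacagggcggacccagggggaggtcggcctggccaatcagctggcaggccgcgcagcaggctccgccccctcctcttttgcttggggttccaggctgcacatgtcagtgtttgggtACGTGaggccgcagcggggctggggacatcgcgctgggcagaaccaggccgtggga

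The capitals in Bnip3 are a pair of overlapping matches, 1 on each strand. Promoters were found for 22 of the 32 interferon-stimulated genes tested, and 11 of these 22 held the interferon-stimulated response element as spelled out above, against 3.92% of all tested genes with a promoter. The NF-kB motif was found in 3 of 15 inflammatory cytokine genes and 4 of 13 chemokine genes, against 2.05%. ACGTG was found in 18 of 23 genes of the glycolysis and hypoxia list (78.3%), against 29.8%. These shares describe letters in a 300-base window and not bound sites.

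Salt and LPS together changed most of the transcripts that could be measured. Of 10236 genes, 8015 (78.3%) differed between cells given both and untreated cells at an adjusted p under 0.05 in limma's test, 3166 of them higher (30.9%) and 4849 lower (47.4%). At least 2-fold changes were found for 781 genes that rose (7.63%) and 780 that fell (7.62%), and the per-mouse differences had 1 sign in 4 of 4 mice for all 1561. The values of the 8 arrays did not overlap between the groups in 7584 genes (74.1%). Lack of overlap given for a named gene is therefore only a description. Many calls were small, with 4142 (51.7% of those called) below 0.5 in size. Changes of at least 8-fold were rises for 136 genes and falls for 18. Rises made up 39.5% of the calls, but 52.5% with no filter on dim probe sets and 51.8% after cyclic loess scaling, where the median change over all genes was 0.0761 and 0.0242 in place of -0.11. The share was 45.4% after quantile scaling and 39% after median centring. The split of calls into higher and lower thus moved with the filter and with some scalings.

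The combined change of a gene is exactly the sum of 2 averaged effects, that of salt (the mean of its effects without and with LPS) and that of LPS (the mean of its effects at 290 and at 450 mOsm). Salt's averaged effect was called in 5665 genes (55.3%) and that of LPS in 8146 (79.6%). At least 2-fold, LPS had 746 rises (7.29%) and 569 falls (5.56%), and salt 56 rises (0.547%) and 80 falls (0.782%). In 116 genes (1.13%) both effects were rises of at least 0.5 called by the test, and in 119 (1.16%) both were falls. In 131 genes (1.28%) they were opposed. A separate contrast asked whether the combined change departed from the sum of salt alone and LPS alone, both set against the same untreated arrays. It did in 2161 genes (21.1%), 1097 above the sum (10.7%) and 1064 below it (10.4%).

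**Figure D1:**
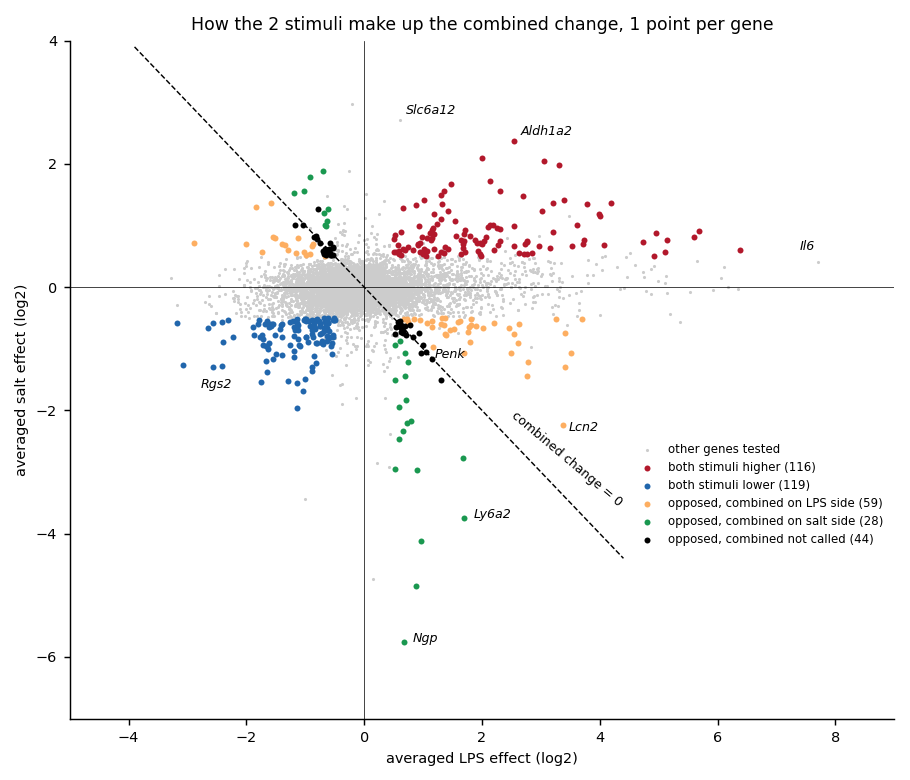
Averaged LPS effect (x axis, log2) and averaged salt effect (y axis, log2) of each of the 10236 genes tested, with coloured points for genes in which both effects are called and at least 0.5 in size. Points on the dashed line have a combined change of 0; Il6 lies far to the right near a salt effect of 0, Ngp far below, and Aldh1a2 at the upper right.

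The cytokine Il6 rose most. It had log2 signals of 12.42, 12.43, 12.35 and 12.25 in mice 1 to 4 with salt and LPS, against 4.13, 4.39, 4.18 and 4.35 in the untreated cells of the same mice. The groups lay 8.10 ± 0.09 apart (limma's SE, n = 4 mice per group, adjusted p = 3.33e-21), a 274-fold difference. Its untreated values are below 6.83, the level used to filter dim probe sets, where RMA compresses differences. Nos2, the inducible nitric oxide synthase, had 13.26, 13.27, 13.19 and 13.24 with both stimuli, against 6.00, 6.31, 6.27 and 6.45 without, a 126-fold rise (6.98 ± 0.10, adjusted p = 1.98e-19). Both salt (0.61) and LPS (6.37) added to it, and the arrays of each group stayed within 0.5 of each other.

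The next 8 rises, in order of size, combined enzymes, interferon-induced genes and cytokines. Ch25h makes the signalling sterol 25-hydroxycholesterol, and it rose by 6.60 ± 0.16. Iigp1, a GTPase of cell-autonomous defence, rose by 6.43 ± 0.12. Il12b, the shared p40 chain of IL-12 and IL-23, rose by 6.31 ± 0.15, and the IFI200 family member Ifi205, which can share probes with its close relatives, by 6.20 ± 0.22. They were followed by Cxcl10 (6.16 ± 0.17), a ligand of CXCR3, and by Ptgs2 (6.07 ± 0.24), the cyclooxygenase COX-2. The last of the 10, Il10 and the guanylate-binding protein gene Gbp5, rose by 5.89 ± 0.12 and 5.88 ± 0.09. Adjusted p-values of these 8 were at most 9.77e-14, and none of them had overlapping groups. The 10 genes were picked for their size, so the lack of overlap is a description.

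Of the 10, Il10 lay above the sum of single changes and Iigp1 below it. The departures of Il12b, above the sum, and Gbp5, below it, were less firm. That of Il12b was lost without replicate 1 (adjusted p = 0.0936), 2 (0.0861) or 4 (0.106), and that of Gbp5 after quantile scaling (0.0514) and without replicate 3 (0.0853). The departure of Ch25h, at 0.455, was not called (adjusted p = 0.176) but passed with the mouse as a replicate block (adjusted p = 0.00649) and without replicate 3 (0.567, adjusted p = 0.0232). Il10 had 10.76, 10.55, 10.81 and 10.51 with salt and LPS, against 4.74, 4.67, 4.62 and 5.02 in untreated cells. Salt alone left it at a mean of 4.78 and LPS alone at 9.15. The combined rise was above the sum of the single changes by 1.49 ± 0.16 (adjusted p = 4.13e-06). Iigp1 went the other way, with a mean of 10.96 for both stimuli, 5.38 for salt alone, 11.17 for LPS alone and 4.53 for neither, and a combined rise below the sum (-1.06 ± 0.17, adjusted p = 0.000192).

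**Figure D2:**
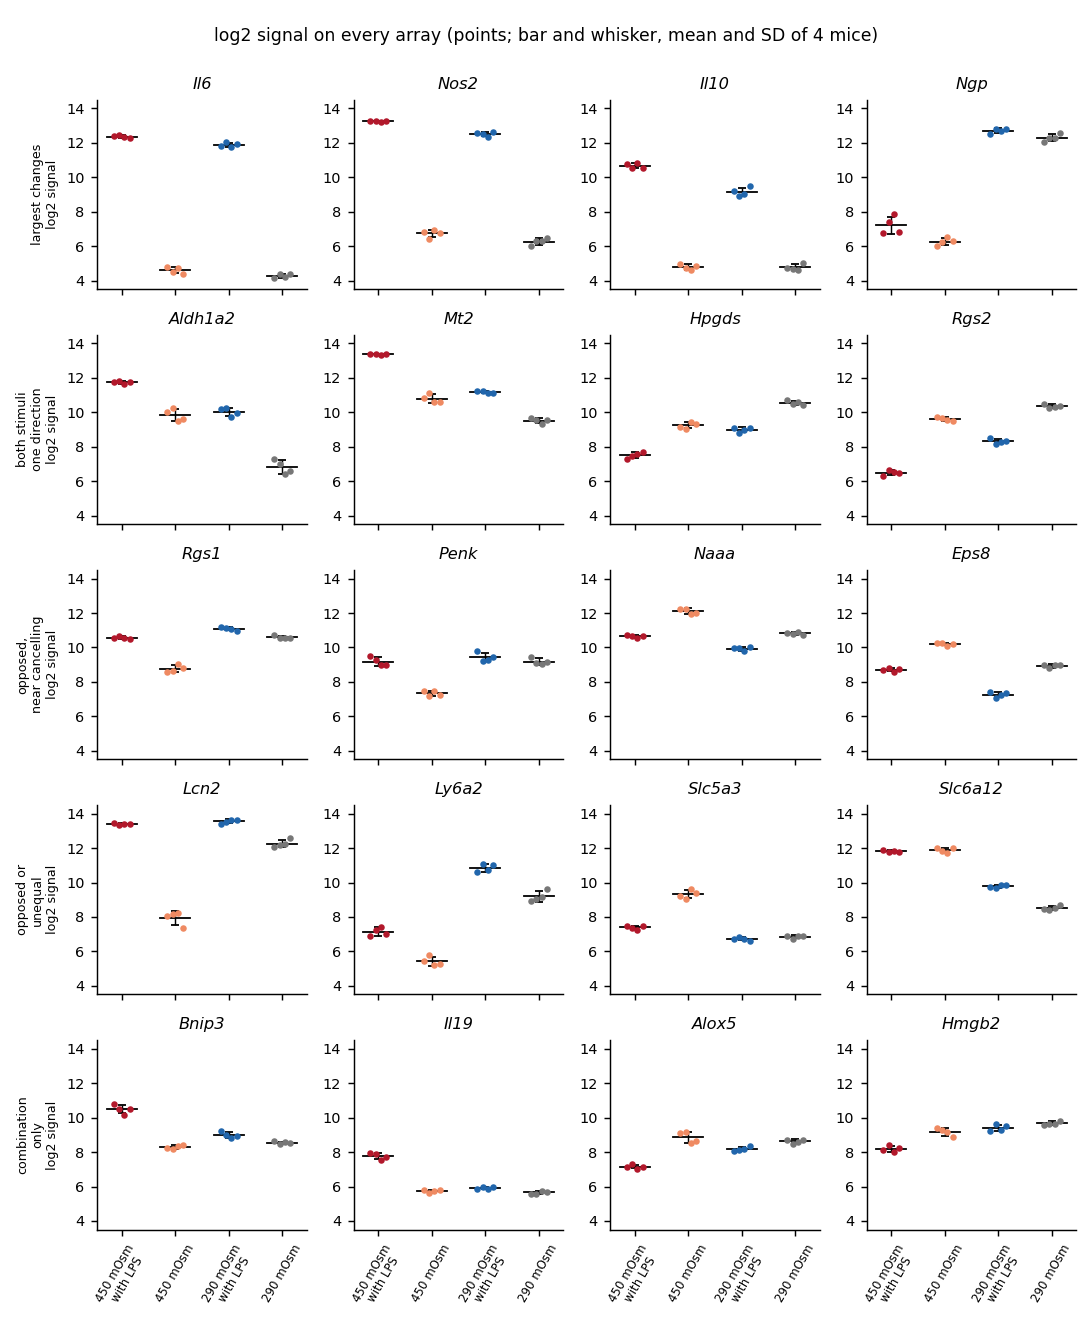
Log2 signal (y axis) of 20 genes on all 16 arrays, 1 point per mouse, with bars for the mean and whiskers for the SD of 4 mice, in cells given 450 mOsm with LPS, 450 mOsm, 290 mOsm with LPS and 290 mOsm. Il6 and Nos2 are high in both LPS groups, Bnip3 and Il19 are highest in the first group, and Rgs1 and Penk have their first and last groups at the same height, with 450 mOsm alone below them.

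Genes of neutrophil granules led the falls. Ngp, neutrophilic granule protein, had 6.78, 7.40, 7.84 and 6.81 with salt and LPS, against 12.05, 12.29, 12.28 and 12.54 in untreated cells. It fell by 5.09 ± 0.18 (adjusted p = 1.72e-14), and the lactoferrin gene Ltf by 4.58 ± 0.13. The arrays did not overlap in either, and the lower groups sat near or below 6.83, a range in which RMA compresses differences. Retnlg, a resistin-like gene of neutrophils, fell by 4.45 ± 0.25, and S100a9, a subunit of calprotectin, by 3.98 ± 0.18. In these bulk cultures, fewer cells of a type and less RNA per cell cannot be told apart.

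Of 17 neutrophil markers tested, 15 fell and 2 rose (47.4% and 30.9% of all genes did), with 13 falls of at least 2-fold and a median of -1.86 (all genes, -0.11). The log2 of their summed signal was 13.97 to 14.06 in the 4 arrays with both stimuli and 14.79 to 15.19 in the untreated ones. It was 12.55 to 12.73 with salt alone and 15.26 to 15.57 with LPS alone, so the lowest group was salt without LPS. The mean of 9 of the 17 markers lay below 6.83 in doubly treated cells, and of none in untreated cells. The 2 that rose were Lcn2 and Csf3r, the receptor for G-CSF. The part that a change in neutrophils has in the other results was not tested.

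The rest of the 10 largest falls were genes of other kinds. Kcnj2, an inward rectifier potassium channel, had 4.80, 4.87, 5.26 and 4.89 with both stimuli and 9.50, 9.32, 8.98 and 9.41 without (-4.35 ± 0.13, adjusted p = 1.31e-15). The averaged effect of LPS on Kcnj2 was -3.08 and that of salt -1.26. Rgs2, a regulator of G protein signalling, fell by 3.86 ± 0.08, and its combined fall went beyond the sum of single changes by 1.08 ± 0.12 (departure -1.08, adjusted p = 3.64e-06). Tmem154 fell by 3.75 ± 0.09, the C-type lectin gene Clec4b1 by 3.68 ± 0.14, the monocyte chemokine receptor gene Ccr2 by 3.46 ± 0.16 and Sesn1, a stress-induced p53 target, by 3.31 ± 0.08. For Ccr2 salt alone gave 0.36 and LPS alone -2.52, so salt alone went the other way.

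Counts of each gene list stand beside the 30.9% of all genes that rose and the 47.4% that fell. Among inflammatory cytokines, 19 of 20 rose, 17 of them at least 2-fold, and 1 fell, Tgfb1 (-0.49). The list's median was 3.17, beside 0.10 for salt alone and 2.79 for LPS alone. Of the 20, 8 exceeded the sum of single changes and 2 fell short of it, where 10.7% and 10.4% of all genes did. Tnf had 12.76, 12.81, 12.83 and 12.66 with both stimuli and 10.60, 11.10, 10.23 and 11.04 without. Its rise (2.02 ± 0.14, adjusted p = 3.67e-10) was below the list's median, and salt alone lowered it (-1.01). Il1b rose by 5.09 ± 0.17.

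Il33, an alarmin of the IL-1 family, had the largest excess over the sum among the 20. It had 9.73, 9.74, 8.95 and 9.45 with salt and LPS and 4.61, 4.69, 4.69 and 4.68 in untreated cells. Salt alone gave a mean of 4.82 and LPS alone 6.79. The combined rise of 4.80 ± 0.20 passed the sum by 2.53 ± 0.28 (adjusted p = 4.78e-06), and the lowest array with both stimuli was above every array of the other group.

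Chemokine genes rose in 17 of 20 cases, with 1 fall (Pf4, platelet factor 4) and 2 not called (Ccl6 at 0.10 and Ccl9 at 0.09). The median was 2.69, with 16 rises of at least 2-fold. Cxcl9 rose by 4.76 ± 0.08, less than the 5.71 of LPS alone. Ccl7, a ligand of CCR2 among other receptors, had 11.49, 11.41, 11.37 and 11.42 with both stimuli and 7.71, 7.58, 7.11 and 7.38 without. Salt alone lowered Ccl7 (-0.66) and LPS alone raised it (2.93), yet the combined change of 3.98 ± 0.10 lay above their sum by 1.70 ± 0.14 (adjusted p = 2.13e-07). Ccl22, a ligand of CCR4 as Ccl17 is, rose by 2.75 ± 0.11.

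Receptors for chemokines and other chemoattractants mostly fell, in 8 of 10 cases, with a median of -0.70. The 2 that rose were Ccr7, which guides mature dendritic cells to lymph nodes, and the atypical receptor gene Ccrl2. Ccr7 had 12.04, 12.15, 12.19 and 12.24 with both stimuli and 9.52, 8.86, 9.17 and 9.47 without (2.90 ± 0.13, adjusted p = 3.32e-13). Ccrl2 rose by 2.48 ± 0.09, and salt had averaged effects of 0.22 for Ccr7 and -0.00 for Ccrl2.

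All 20 genes of the list of NF-kB subunits and feedback inhibitors rose, 14 of them at least 2-fold, with a median of 1.54. Socs3, which blocks cytokine receptor signalling, had the largest rise among them, with 11.51, 11.51, 11.26 and 11.49 with salt and LPS against 6.97, 7.16, 7.27 and 7.14 without (4.31 ± 0.08, adjusted p = 7.23e-18). The IkB family genes Nfkbiz, Nfkbib and Nfkbia rose by 3.01 ± 0.10, 2.22 ± 0.06 and 1.90 ± 0.09. By the test, 7 members exceeded the sum of single changes and 0 fell short.

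In the TLR4 pathway 11 of 17 genes rose, 4 fell and 2 were not called, with a median of 0.46. The coreceptor gene Cd14 had 12.34, 12.32, 12.36 and 12.37 with both stimuli and 10.73, 10.80, 10.59 and 10.72 without (1.64 ± 0.06, adjusted p = 3.03e-14). The kinase gene Ikbke and the inhibitory pseudokinase gene Irak3 rose by 1.31 ± 0.06 and 1.25 ± 0.07. The receptor itself, Tlr4, fell, with 8.85, 8.90, 8.87 and 8.80 against 9.88, 9.65, 9.72 and 9.46 (-0.82 ± 0.08, adjusted p = 5.97e-08). Salt alone put Tlr4 higher by 0.51 and LPS alone lower (-0.41), so that the sum was 0.09 and the combined change departed from it by -0.91 ± 0.12 (adjusted p = 2.34e-05).

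AP-1 and immediate early genes split, with 14 of 24 higher, 6 lower and 4 not called (median 0.49). Ier3 and Batf2 rose by 3.20 ± 0.10 and 2.95 ± 0.09. The zinc finger gene Egr2 had 8.64, 8.67, 8.67 and 8.85 with both stimuli and 11.27, 11.45, 11.20 and 11.56 without (-2.66 ± 0.08, adjusted p = 4.29e-15). In 13 of the 24 genes the combined change lay above the sum, against 10.7% of all genes.

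All 32 interferon-stimulated genes rose, each at least 2-fold, with a median of 3.42. The median was 0.67 for salt alone and 3.42 for LPS alone, and 30 of the 32 fell short of the sum, where 10.4% of all genes did. Ifit1, an RNA-binding antiviral protein gene, had 13.17, 13.16, 13.13 and 13.16 with both stimuli, against 7.62, 7.75, 7.52 and 7.88 without. Its means were 9.12 with salt alone and 13.12 with LPS alone, and the departure from the sum was -1.39 ± 0.14 (adjusted p = 2.43e-06). The means of both LPS groups were thus nearly equal, and the highest value of any array was 14.32.

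Irf7, the regulator that amplifies the interferon response, averaged 12.85 ± 0.04 with both stimuli and 8.26 ± 0.23 without (SD, n = 4 each). It rose by 4.59 ± 0.10, with 4.62 for LPS alone, 1.04 for salt alone and a departure of -1.06 ± 0.14 (adjusted p = 3.67e-05). Isg20, Cmpk2 and Irgm1 rose by 4.62 ± 0.07, 5.18 ± 0.10 and 3.23 ± 0.07. The 8 interferon-induced GTPases all rose as well (median 3.47), and 5 of the 8 fell short of the sum. Members of the GBP and IRG families resemble each other, so their probes may be shared.

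All 18 genes of costimulation and maturation rose at least 2-fold, with a median of 2.89. Salt alone had a median of 0.05 in them and LPS alone 2.18. Cd40 had 12.52, 12.55, 12.46 and 12.45 with both stimuli and 7.46, 7.45, 7.34 and 7.57 without (5.04 ± 0.07, adjusted p = 1.35e-19). Its rise was slightly smaller than with LPS alone (5.31), whereas Cd80 and Slamf1 had the opposite pattern. Cd80 had 11.87, 11.88, 11.90 and 11.88, against 9.09, 9.01, 9.05 and 9.09. It rose by 2.82 ± 0.06, above the sum by 1.06 ± 0.09 (adjusted p = 2.13e-07). Cd86, the partner of CD80 in binding CD28, rose by 2.89 ± 0.12.

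Slamf1, a self-binding receptor of the SLAM family, had the largest excess among the 18. It had 10.34, 10.09, 10.27 and 10.21 with salt and LPS, against 5.76, 5.59, 5.50 and 5.55 in untreated cells. Salt alone gave a mean of 5.21 and LPS alone 7.53. The combined rise of 4.63 ± 0.12 passed the sum by 3.09 ± 0.18 (adjusted p = 2.63e-09), and the groups did not overlap.

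Of 17 class I genes, 14 rose and 3 fell, the chaperone genes Pdia3, Calr and Canx at -0.53, -0.41 and -0.37 (median of the list 1.29). Nlrc5, the transactivator of class I genes, had 12.11, 12.06, 12.06 and 12.03 with both stimuli, against 8.92, 9.01, 9.04 and 8.92 without (3.09 ± 0.07, adjusted p = 7.77e-17), below the sum by 1.05 ± 0.10 (departure -1.05). The peptide transporter gene Tap1 rose by 2.70 ± 0.08 and the immunoproteasome gene Psmb10 by 1.96 ± 0.06. Of 15 class II genes, 3 rose, 7 fell and 5 were not called, none by 2-fold (median -0.14). H2-Ab1 had 13.27, 13.30, 13.35 and 13.30 against 13.36, 13.42, 13.33 and 13.37, a difference of -0.07 (95% interval -0.15 to 0.02). The class II transactivator gene Ciita differed by -0.14 (interval -0.36 to 0.07). The lysosomal genes Lgmn, Ifi30 and Ctsl, which process antigen, fell by 0.82 ± 0.05, 0.80 ± 0.05 and 0.70 ± 0.06.

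**Figure D3:**
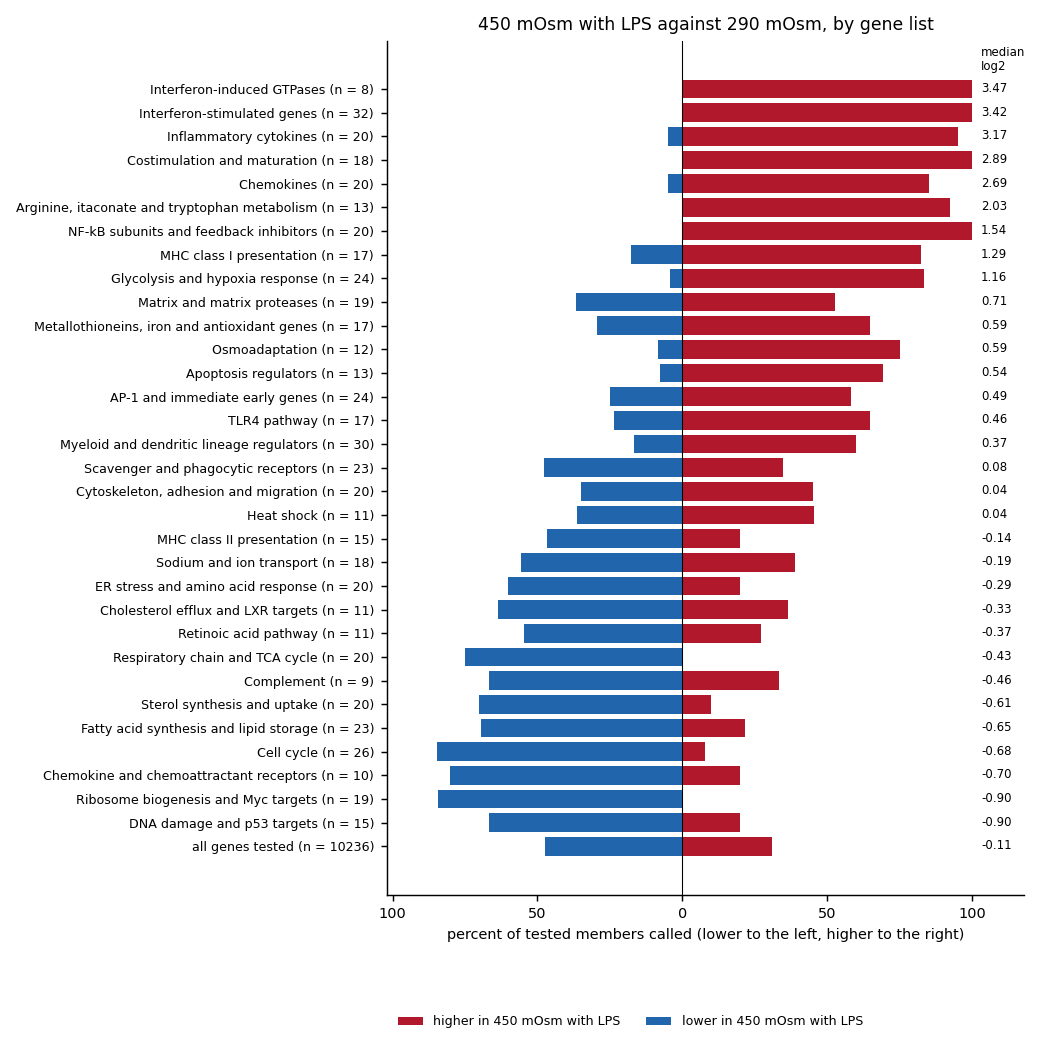
Percent of the tested members of each of 32 gene lists called higher (red, to the right) or lower (blue, to the left) in cells given 450 mOsm with LPS than in cells at 290 mOsm, with the median log2 change at the right edge and all 10236 genes in the bottom row. All members of the interferon-stimulated, GTPase, costimulation and NF-kB lists are higher, and the lists with the lowest medians are ribosome biogenesis and p53 targets, both at -0.90.

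In the 116 genes with both averaged effects higher, the median combined rise was 2.64, and 45 of them lay above and 39 below the sum of single changes. Membership does not require a change with each stimulus alone. Il10 is a member, with means of 4.78 for salt alone and 4.76 in untreated cells. The 5 of the 116 in which the smaller of the effects was largest were Aldh1a2, Ccl17, Ly6i, Serpinb2 and Mt2. Aldh1a2, a retinaldehyde dehydrogenase that makes retinoic acid, had 11.79, 11.81, 11.64 and 11.74 with both stimuli and 7.30, 6.99, 6.42 and 6.58 without. Salt alone raised it by 3.01 and LPS alone by 3.19, and the combined rise of 4.92 ± 0.17 fell short of their sum (departure -1.28 ± 0.24, adjusted p = 0.000896). Every array with both stimuli was above every untreated one.

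Ccl17, a chemokine that draws CCR4-bearing T cells, was also raised by each stimulus. It had 13.34, 13.40, 13.19 and 13.23 with both stimuli and 8.79, 8.48, 7.66 and 7.83 without (5.10 ± 0.30, adjusted p = 2.78e-11), with single changes of 3.11 for salt and 4.10 for LPS and a departure of -2.11 ± 0.43 (adjusted p = 0.00147). Ly6i rose by 4.10 ± 0.17, below the sum by 1.65 ± 0.24 (departure -1.65), and it belongs to a family of similar genes that can share probes. Serpinb2, an inhibitor of plasminogen activators, rose by 5.29 ± 0.16, with 2.25 for salt alone and 3.56 for LPS alone. In all 4 of these genes either stimulus alone gave a rise of at least 2.25.

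Mt2, a metallothionein that binds zinc, exceeded the sum. It had 13.40, 13.41, 13.35 and 13.38 with salt and LPS, against 9.67, 9.55, 9.29 and 9.58 without. Salt alone gave 1.27 and LPS alone 1.67, while the combined rise was 3.86 ± 0.10, above the sum by 0.93 ± 0.14 (adjusted p = 9.6e-05).

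The 119 genes with both averaged effects lower had a median of -1.83, 38 above and 26 below the sum. Their leading 5 were Cd300ld, Hpgds, Emp2 and the already described Rgs2 and Clec4b1. Cd300ld, a receptor of the CD300 family, had 9.07, 9.19, 9.51 and 9.56 with both stimuli and 12.60, 12.56, 12.67 and 12.69 without (-3.29 ± 0.11, adjusted p = 4.89e-15). Hpgds, the hematopoietic synthase of prostaglandin D2, had 7.31, 7.47, 7.56 and 7.71 against 10.69, 10.46, 10.57 and 10.42. It fell by 3.02 ± 0.10, close to the sum of -1.29 for salt and -1.55 for LPS (departure -0.18 ± 0.14, adjusted p = 0.406). Emp2, an epithelial membrane protein gene, fell by 2.83 ± 0.08, with -2.35 for salt alone and -2.12 for LPS alone. Its means were 6.83 with both, 7.30 and 7.53 with either and 9.66 with neither, and the combined fall was smaller than the sum (departure 1.65 ± 0.12, adjusted p = 2.36e-08).

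The averaged effects of salt and LPS were opposed in 131 genes. In 44 of these the combined change was not called (0.43% of all genes), 24 of them with salt higher and LPS lower and 20 the reverse, and their combined changes ran from -0.24 to 0.49. In 59 the combined change took the side of LPS (0.576%) and in 28 the side of salt (0.274%). A combined change that is not called is not a change of 0, so intervals are given. Averaged effects can be opposed where 1 stimulus alone changed little, as with LPS alone in Slc5a3 (-0.12).

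Penk, the enkephalin precursor, was the most closely balanced of the 5 leading genes. Its arrays ran between 8.96 and 9.49 with salt and LPS and between 9.03 and 9.46 in untreated cells, with means of 9.18 in both and a 95% interval of -0.28 to 0.28 for the difference. Means were 7.33 with salt alone and 9.44 with LPS alone. Salt's effect on Penk was -1.85 without LPS and -0.27 with it (adjusted p = 0.123), and the departure of 1.58 passed the test. The arrays of the compared groups overlapped. Rgs1, another regulator of G protein signalling, had 10.55, 10.69, 10.52 and 10.52 with both and 10.71, 10.57, 10.53 and 10.55 with neither (interval -0.19 to 0.15), with means of 8.77 for salt alone and 11.08 for LPS alone.

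Naaa, a lysosomal hydrolase of N-acylethanolamines, was moved the other way by each stimulus. It had 10.74, 10.69, 10.54 and 10.64 with salt and LPS, against 10.84, 10.78, 10.91 and 10.72 without, with means of 12.11 for salt alone and 9.93 for LPS alone. The difference of -0.16 (interval -0.32 to 0.00) lay at the threshold (adjusted p = 0.0668), and it passed with the mouse as a replicate block (-0.16, adjusted p = 0.0453). After quantile scaling the difference was -0.30 (adjusted p = 0.000722) and after cyclic loess 0.0111 (adjusted p = 0.897), so a balance of the stimuli in Naaa depended on the scaling. Ccdc80, a matrix-associated protein gene, had the same pattern, with a combined difference of -0.02 (interval -0.37 to 0.33), 1.30 for salt alone and -0.75 for LPS alone. Stfa3, a stefin of a family that shares probes, differed by -0.21 (interval -0.46 to 0.04), from -1.23 with salt alone and 1.58 with LPS alone, and its signals of at most 6.34 in both groups are dim. Without replicate 2 its difference was -0.34 and passed the threshold.

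Where LPS prevailed, Lcn2 led the named genes. Lipocalin 2 takes iron-carrying siderophores from bacteria, and its gene had 13.48, 13.35, 13.39 and 13.42 with salt and LPS, against 12.08, 12.19, 12.23 and 12.58 without. Salt alone left it at 7.96 and LPS alone at 13.56. The combined rise of 1.14 ± 0.15 (adjusted p = 1.12e-06) therefore stood 4.16 ± 0.21 above the sum of single changes (adjusted p = 4.85e-10), beside the change in neutrophil markers given above, a list that includes Lcn2 and whose part in the result was not tested. Apol7c rose by 2.11 ± 0.14, with -1.26 for salt alone and 3.45 for LPS alone, close to the sum of 2.19. Plac8 rose by 1.32 ± 0.16. Eps8, an actin-capping protein gene, was lower by a small margin (-0.23 ± 0.07, adjusted p = 0.0081), with 1.27 for salt alone and -1.68 for LPS alone, and without replicate 3 that call was lost (-0.17, adjusted p = 0.0885).

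Where salt prevailed, 19 of 28 genes had a fall as the averaged effect of salt and a rise as that of LPS. These 19 include Ngp, S100a9 and other members of the neutrophil marker list described above, whose part in this count was not tested. Ly6a2 had 6.92, 7.26, 7.43 and 7.00 with both stimuli and 8.91, 9.06, 9.16 and 9.65 without (-2.04 ± 0.16, adjusted p = 1.33e-09), and it had -3.78 with salt alone and 1.67 with LPS alone, which sum to -2.11. Chil1, a chitinase-like gene and 1 of the neutrophil markers, fell by 1.09 ± 0.12, from -2.29 with salt alone and 2.16 with LPS alone. Both stimuli together thus left less Chil1 than neither did, while LPS alone left more. Hpgd, which degrades prostaglandins, rose by 0.35 ± 0.12 (adjusted p = 0.014), but without replicate 2 by 0.31, which did not pass (adjusted p = 0.0553).

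Of 12 osmoadaptation genes 9 rose, 1 fell and 2 were not called (median 0.59), and 5 of the 12 lay below the sum and 3 above. Slc5a3, the sodium-coupled inositol transporter, had 7.48, 7.39, 7.23 and 7.46 with both stimuli and 6.89, 6.75, 6.89 and 6.90 without. The rise of 0.54 ± 0.09 (adjusted p = 3.34e-05) compares with 2.47 for salt alone and -0.12 for LPS alone, a departure of -1.82 ± 0.13 (adjusted p = 2.58e-08). The arrays still did not overlap.

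Slc6a12, the betaine transporter gene, rose with both stimuli about as with salt alone. It had 11.91, 11.78, 11.83 and 11.76 with both stimuli, against 8.46, 8.38, 8.51 and 8.69 without. The combined rise of 3.31 ± 0.07 (adjusted p = 4.24e-17) was close to the 3.38 of salt alone, and since LPS alone gave 1.27, it was below the sum by 1.35 ± 0.10 (departure -1.35). Fxyd2, which modulates the Na,K-ATPase, rose by 2.76 ± 0.07, with 3.31 for salt alone. Aqp9, a channel for water and small solutes, rose by 2.92 ± 0.14, with 1.16 for salt alone and 0.94 for LPS alone. The taurine transporter gene Slc6a6 was higher by 0.15 ± 0.04 (adjusted p = 0.00525), a call that was lost without replicate 1 (adjusted p = 0.0521). The salt-responsive kinase gene Sgk1 differed by 0.05 (interval -0.13 to 0.22).

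Nfat5 itself rose. It had 9.96, 9.92, 9.99 and 9.71 with salt and LPS, against 8.80, 8.85, 8.80 and 8.95 without. Salt alone gave a mean of 8.82 and LPS alone one of 9.25. The combined rise of 1.04 ± 0.09 (adjusted p = 4.5e-09) passed the sum by 0.67 ± 0.12 (adjusted p = 0.000696), and no array of the combination overlapped an untreated one. Among 18 genes of sodium and ion transport 7 rose and 10 fell (median -0.19). Stk39, the kinase SPAK that acts on cation-chloride cotransporters, rose by 2.99 ± 0.10, beside 2.73 for LPS alone.

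Nfat5 is 1 of 31 genes (0.303%) that changed at least 2-fold with both stimuli, departed from the sum, and changed by less than 0.5 with either alone. Of these 19 were higher (0.186%) and 12 lower (0.117%). Some were also counted above among the genes with both averaged effects higher (such as Il19, Ptch1 and Ankrd37) or lower (such as Serpinb10, Sh2d3c and Hmgb2). Il19, a cytokine of the IL-10 family, rose most. It had 7.92, 7.91, 7.57 and 7.73 with salt and LPS and 5.59, 5.59, 5.75 and 5.68 in untreated cells (2.13 ± 0.07, adjusted p = 1.07e-14), against 0.08 for salt alone and 0.27 for LPS alone, the second of which passed the test too (adjusted p = 0.00275). The excess over the sum was 1.78 ± 0.10, and all groups except the combination were dim. Il19 therefore passed the filter on dim probe sets only through the arrays of the combination, and its single changes lie in the compressed range. Ptch1, the hedgehog receptor, rose by 1.80 ± 0.06, with an excess of 1.39 ± 0.09.

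Bnip3, a mitophagy receptor and hypoxia target, had 10.80, 10.51, 10.18 and 10.51 with both stimuli, against 8.64, 8.50, 8.56 and 8.52 without (1.94 ± 0.10, adjusted p = 5.1e-12). Salt alone gave -0.26 and LPS alone 0.46, close to the limit of 0.5, and the excess over the sum was 1.75 ± 0.14 (adjusted p = 1.73e-07). Ankrd37, another hypoxia target, had 9.17, 8.90, 8.56 and 8.71 against 7.31, 7.19, 7.12 and 7.06. It rose by 1.67 ± 0.10, with an excess of 1.29 ± 0.14. The promoters of both, printed above, hold ACGTG. Both are counted in the 8 of 17 combination-only risers with a promoter that hold it (47.1%), against 29.8% of all genes. Of 11 combination-only genes that fell and had a promoter, 2 held it (18.2%).

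Alox5, which starts leukotriene synthesis, had 7.15, 7.28, 7.03 and 7.15 with both stimuli, against 8.70, 8.48, 8.61 and 8.71 without. It fell by 1.47 ± 0.11, with 0.24 for salt alone and -0.43 for LPS alone, a departure of -1.28 ± 0.16 (adjusted p = 1.57e-05). Serpinb10, a serpin, fell by 2.06 ± 0.17 and the adaptor gene Sh2d3c by 1.51 ± 0.11, with departures of -1.51 ± 0.24 and -1.05 ± 0.16. Hmgb2, a chromatin protein, fell 2.83-fold with a departure of -0.74 ± 0.15, and salt alone took it to -0.50, the edge of the limit. No array of the combination overlapped an untreated array in any of these 4 genes. They were picked for their large falls, and 74.1% of all genes lacked overlap too.

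Of 24 genes of the glycolysis and hypoxia list 20 rose, 15 of them at least 2-fold, 1 fell (Pfkfb4, -0.95) and 3 were not called (median 1.16). The medians were 0.07 for salt alone and 0.23 for LPS alone. In 19 of the 24 the combined change lay above the sum, against 10.7% of all genes, and in 0 below. Pfkfb3, which makes the activator of phosphofructokinase, rose by 2.81 ± 0.07 and P4ha1, a prolyl hydroxylase of collagen, by 1.52 ± 0.07. Hif1a had 12.84, 12.83, 12.71 and 12.69 with both stimuli and 11.03, 11.01, 10.74 and 10.84 without (1.86 ± 0.08, adjusted p = 1.62e-13).

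Vegfa, the vascular growth factor gene, belongs to the list but did not differ by the test. It had 10.26, 9.73, 9.61 and 9.72 with salt and LPS, against 9.85, 9.90, 9.64 and 9.74 without, an interval of -0.18 to 0.27. LPS alone had left it at a mean of 7.81 and salt alone at 9.69, so the combination stood above the sum by 2.11 ± 0.15 (adjusted p = 3.48e-08). The compared groups overlapped, and the array of mouse 1 was the highest with both stimuli.

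**Figure D4:**
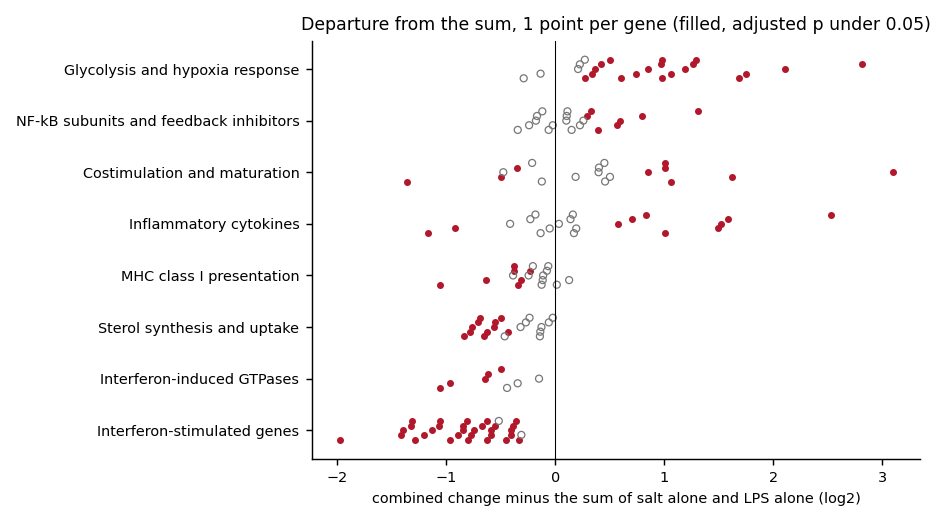
Combined change minus the sum of the changes with salt alone and with LPS alone (x axis, log2), 1 point per tested gene, for 8 gene lists; filled points have an adjusted p under 0.05. Of the glycolysis and hypoxia genes 19 of 24 are filled points right of 0, and of the interferon-stimulated genes 30 of 32 are filled points left of 0.

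Respiratory chain and TCA cycle genes fell in 15 of 20 cases, with 5 not called, 0 rises and a median of -0.43. The size was modest, with 2 falls of at least 2-fold, Idh2 (-1.43 ± 0.05) and Idh3a (-1.03 ± 0.07), both isocitrate dehydrogenases. Sdhb, a subunit of succinate dehydrogenase, had 9.85, 9.84, 9.95 and 9.96 with both stimuli and 10.74, 10.68, 10.75 and 10.72 without (-0.82 ± 0.05, adjusted p = 2.49e-11). After cyclic loess scaling 14 of the 20 fell and 2 rose.

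Of 20 genes of sterol synthesis and uptake 14 fell, 2 rose and 4 were not called (median -0.61), where 47.4% of all genes fell and 30.9% rose. Neither stimulus alone had a median beyond 0.10 in size in this list (0.10 for salt, -0.10 for LPS), and 11 of the 20 lay below the sum against 10.4% of all genes. Hmgcs1, the synthase before the rate-limiting step, had 8.83, 8.98, 8.94 and 8.71 with both stimuli and 9.96, 9.95, 9.58 and 9.69 without (-0.93 ± 0.08, adjusted p = 1e-08). Dhcr7, a late enzyme of the pathway, fell by 1.87 ± 0.07 and Ebp by 0.77 ± 0.07, whereas the isomerase gene Idi1 rose by 2.04 ± 0.16.

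Fatty acid genes fell in 16 of 23 cases, with 5 rises and a median of -0.65 (all genes, -0.11). Lpin1, a phosphatidate phosphatase, fell by 3.13 ± 0.12, the desaturase gene Fads1 by 2.61 ± 0.08 and the nuclear receptor gene Pparg by 2.14 ± 0.09. LPS alone gave -3.17 for Lpin1, -2.41 for Fads1 and -2.06 for Pparg. Of 11 cholesterol efflux and LXR genes 7 fell and 4 rose (median -0.33), among them Ch25h at the top of all rises. The esterase gene Nceh1 fell by 2.39 ± 0.08 and the efflux pump gene Abca1 by 0.73 ± 0.07.

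Of 13 genes of arginine, itaconate and tryptophan metabolism 12 rose and 1 was not called, with a median of 2.03. The arginine transporter gene Slc7a2, which feeds Nos2, had 13.38, 13.40, 13.34 and 13.26 with both stimuli and 10.07, 10.38, 10.16 and 10.37 without (3.10 ± 0.07, adjusted p = 8e-17). Ptges, which is counted in this list though it makes prostaglandin E2 downstream of Ptgs2, rose by 3.43 ± 0.12.

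Metal handling genes also changed. Among 17 metallothionein, iron and antioxidant genes 11 rose and 5 fell (median 0.59), 8 above and 2 below the sum. Hamp, which encodes the iron hormone hepcidin, had 10.23, 10.06, 9.78 and 9.78 with both stimuli and 5.77, 5.63, 6.11 and 5.64 without. The rise of 4.17 ± 0.20 passed the sum by 2.4 ± 0.29 (adjusted p = 1.09e-05), with means of 6.07 for salt alone and 7.29 for LPS alone. Slc40a1, the iron exporter ferroportin, had 8.57, 8.52, 8.78 and 8.46 against 11.15, 11.14, 11.33 and 11.04 (-2.59 ± 0.09, adjusted p = 1.72e-14), close to the sum of -1.10 and -1.51. The metal importer gene Slc39a14 rose by 2.10 ± 0.07.

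Growth genes fell. Cell cycle genes were lower in 22 of 26 cases and higher in 2 (median -0.68), and ribosome biogenesis and Myc target genes lower in 16 of 19 and higher in 0 (median -0.90). Myc had 7.15, 7.09, 7.60 and 7.48 with both stimuli, against 9.69, 9.59, 9.34 and 9.48 without (-2.20 ± 0.10, adjusted p = 2.89e-13). Dkc1 and Utp20, which act in ribosome assembly, fell by 1.88 ± 0.08 and 1.64 ± 0.08. The mitotic kinesin gene Kif11 and the cyclin gene Ccna2 fell by 1.75 ± 0.09 and 1.55 ± 0.11, and the replication clamp gene Pcna by 0.75 ± 0.05.

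Stress and survival genes were mixed. Of 15 DNA damage and p53 targets 10 fell and 3 rose (median -0.90), and the risers included Gadd45b (2.52 ± 0.10) and Fas, a death receptor gene (2.14 ± 0.08). Of 13 apoptosis regulators 9 rose and 1 fell (median 0.54). Casp4, the mouse caspase-11 that binds cytosolic LPS, had 11.93, 11.87, 11.80 and 11.78 with both stimuli and 8.72, 8.74, 8.50 and 8.77 without (3.16 ± 0.08, adjusted p = 2.43e-16). The survival genes Cflar and Birc3 rose by 2.33 ± 0.07 and 1.37 ± 0.08. ER stress and amino acid genes fell in 12 of 20 cases and rose in 4 (median -0.29), with Sdf2l1, Asns and Herpud1 lower by 1.27 ± 0.07, 1.20 ± 0.10 and 0.94 ± 0.09 in log2 (-1.27, -1.20 and -0.94), but after cyclic loess scaling 8 fell and 7 rose. Heat shock genes had 5 rises and 4 falls in 11 (median 0.04, turning to -0.05 after quantile scaling), with Hspa1a, whose probes a near-identical copy can share, higher by 1.73 ± 0.07.

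Of 23 scavenger and phagocytic receptors 8 rose and 11 fell (median 0.08), shares near the 30.9% and 47.4% of all genes. Mrc1, the mannose receptor, had 9.72, 9.80, 9.67 and 9.79 with both stimuli and 11.31, 11.25, 11.29 and 11.13 without (2.82-fold lower, adjusted p = 1.22e-14). The lectin gene Clec4a2 fell by 2.63 ± 0.07, and the high-affinity IgG receptor gene Fcgr1 rose by 2.06 ± 0.08. Among 9 complement genes 6 fell and 3 rose (median -0.46). Complement factor B, Cfb, rose by 5.17 ± 0.14, while C1qc and C1qa fell by 0.83 ± 0.06 and 0.68 ± 0.06.

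Matrix genes rose in 10 of 19 cases and fell in 7 (median 0.71). Vcan, the proteoglycan versican, had 11.81, 11.82, 11.52 and 11.50 with both stimuli and 7.00, 7.40, 6.94 and 7.08 without. Its rise of 4.56 ± 0.14 equalled that of LPS alone (4.56), although salt alone gave 2.72, so it fell short of the sum by the same 2.72 (departure -2.72 ± 0.20, adjusted p = 3.13e-08). Timp1, an inhibitor of matrix proteases, rose by 4.32 ± 0.15 and the syndecan gene Sdc4 by 2.96 ± 0.07.

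Of 20 cytoskeleton, adhesion and migration genes 9 rose and 7 fell (median 0.04). The integrin gene Itga5 rose by 1.42 ± 0.09, while the actin-binding coronin gene Coro1a and the integrin gene Itgam fell by 1.32 ± 0.06 and 0.58 ± 0.05. In the retinoic acid pathway 3 of 11 genes rose and 6 fell (median -0.37), which is also near the shares of all genes. Beside the rise of Aldh1a2, the retinol and retinal reductase and dehydrogenase genes Dhrs9 and Dhrs3 fell by 1.88 ± 0.08 and 1.62 ± 0.09. Lineage regulators rose in 18 of 30 cases and fell in 5 (median 0.37). Irf1 had 11.05, 11.07, 10.98 and 11.04 with both stimuli and 9.09, 9.10, 8.95 and 9.07 without (1.98 ± 0.05, adjusted p = 5.87e-16), Tcf4 rose by 1.78 ± 0.07, and Cebpa fell by 2.27 ± 0.07.

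Sums of the markers of other cell types were compared in the same way. The log2 of the summed dendritic cell markers was 15.07 to 15.13 with both stimuli and 14.93 to 14.97 without, and of 12 markers 4 rose, 3 fell and 5 were not called. Ccr7, described above, is 1 of the 4 that rose (by 2.90) and weighs heavily in the rise of the sum. Irf8 rose 2.83-fold and Clec9a, a marker of conventional type 1 cells, fell by 2.04 ± 0.14. Macrophage markers summed to 15.08 to 15.20 with both stimuli and 15.44 to 15.49 without, with 9 of 13 lower and 3 higher. Monocyte markers summed to 14.04 to 14.20 against 13.54 to 13.63, with 3 of 7 higher and 3 lower. Ms4a4c, 1 of the 3 that rose, had a mean of 12.98 with both stimuli and 7.32 without, and weighs heavily in that sum. Mast cell and basophil markers summed to 10.50 to 10.74 against 9.98 to 10.76, the last pair of ranges overlapping. Of these 6 markers 4 fell, 3 of them at least 2-fold, and 2 rose (median -1.12). Hdc, 1 of the 2 that rose, had a mean of 10.02 with both stimuli and 7.27 without, and weighs heavily in the sum. Plasmacytoid dendritic cell markers summed to 13.45 to 13.51 with both stimuli and 11.61 to 11.76 without, with 5 of 8 higher and 2 lower. Erythroid and megakaryocyte markers summed to 10.67 to 11.05 against 12.19 to 12.64, with 3 of 4 lower and 0 higher, and T and NK cell markers to 8.15 to 8.35 against 9.20 to 9.71, with 1 of 2 lower. The part of these cell types in the other results was not tested. Bst2, counted among plasmacytoid markers and also interferon-induced, rose by 2.05 ± 0.05. Its means of 13.18 with both stimuli and 11.13 without weigh most in the plasmacytoid sums.

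**Figure D5:**
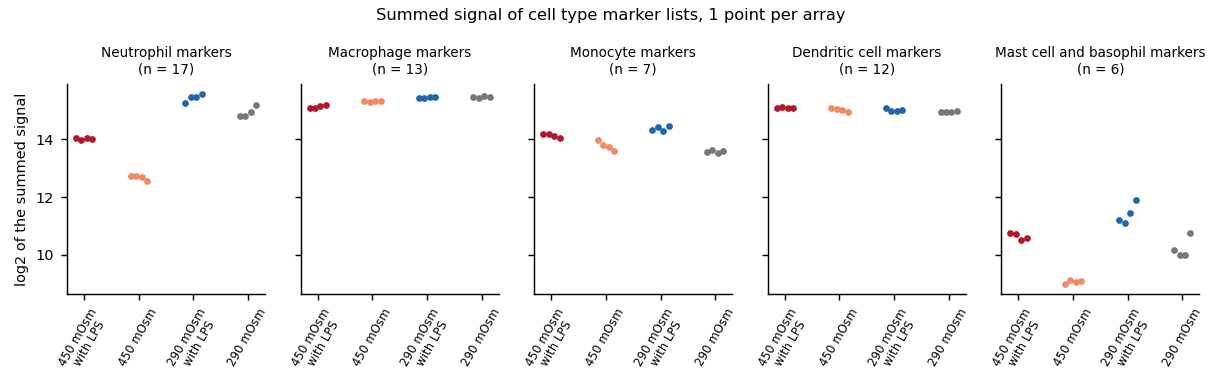
Log2 of the summed signal (y axis) of 5 marker lists on each of the 16 arrays, 1 point per mouse, in cells given 450 mOsm with LPS, 450 mOsm, 290 mOsm with LPS and 290 mOsm. The neutrophil sum is 13.97 to 14.06 with both stimuli, below the 14.79 to 15.19 of untreated cells and above salt alone, while the dendritic cell sum stays between 14.93 and 15.13 in all groups.

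The SD of a gene's 4 per-mouse differences had a median of 0.117 and a 90th percentile of 0.223 over all genes. The median change over all genes was between -0.13 and -0.0899 in each mouse. Correlations between the deviations of a mouse's doubly treated and untreated arrays from their group means were -0.076 to 0.0731.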

How the data were processed

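Total RNA of 16 cultures, 4 in each of 4 groups, was measured on Affymetrix arrays, 1 per culture. The values used are the deposited table of log2 expression per probe set, made by the authors with RMA in the oligo package, per the submitters' processing notes. RMA corrects background, equalises the arrays' distributions and summarises probes, so a shift of most transcripts would be largely removed, and values near the bottom and top of the scale (highest value 14.32) are compressed. Neither software versions nor a genome build is given in the sources used here. Precision is limited by the number of arrays, whose medians were 6.78 to 6.93.

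Of 22549 probe sets, 20646 name 1 gene, 551 several and 1352 none; 20596 were found in a RefSeq table, which changed 0 symbols. Probe sets above 6.83, the median of all values, on at least 4 arrays were kept (12097), and each gene took its probe set with the highest mean (10236 genes, 506 with a choice). limma 3.58.1 in R 4.3.3 fitted 1 mean per group to all 16 arrays (12 residual and 5.53 prior degrees of freedom), with two-sided Benjamini-Hochberg adjusted p-values over all genes and a threshold of 0.05. The model was tested on simulated data. Figures used matplotlib.

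An effect counted towards 1 direction or an opposed pair when both averaged effects were called, were at least 0.5 in size and kept their sign without and with the other stimulus. Lists of 32 pathways and 10 cell types are described by counts and medians. Members and lists were chosen with earlier results of these data known. Genes named are the 10 highest and lowest changes, the leading genes of each class, the 3 smallest p-values of each list and a fixed set, without predicted or clone-based names. Exceptions, chosen after their values were seen, are Cd74, Itgax, Adgre1, Csf3r, Tgfb1, Ccl6, Ccl9, Pdia3, Calr, Canx and Pfkfb4.

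Replicate numbers are mouse identifiers in the labels and so pair the samples. Over 24 same-mouse pairs of arrays the deviations correlated with a median r of 0.0953 (11 over 0.1), against -0.0351 for different mice. Alternatives were the mouse as a fixed or random block, no or a stricter filter, the mean of probe sets, quantile, loess and median scaling, other variance settings, only the 8 arrays, and leaving out each mouse or array.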

Additional observations from a re-analysis of the deposited data

Results flagged for a closer look

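Among 296 sets of 4 arrays, each set being 1 named gene in 1 group, 9 held an array whose gap to the others was large for the range of the set, where chance gives about 1 in 20. With 450 mOsm and LPS these were the lowest arrays of Clec4b1 (4.45, mouse 4), Socs3 (11.26, mouse 3) and Fas (10.83, mouse 4) and the highest of Egr2 (8.85, mouse 4). At 290 mOsm they were the lowest arrays of Eps8 (8.78, mouse 2), Slc5a3 (6.75, mouse 2), Casp4 (8.5, mouse 3) and Il33 (4.61, mouse 1) and the highest of Chil1 (9.13, mouse 4).

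The effect of LPS differed between 450 and 290 mOsm in 2161 genes by limma's test of that difference, which equals the departure from the sum of single changes. Of the named genes, the difference was positive, in log2, for Lcn2 (4.16), Slamf1 (3.09), Il33 (2.53), Hamp (2.4), Vegfa (2.11), Il19 (1.78), Bnip3 (1.75), Ccl7 (1.7), Emp2 (1.65), Il10 (1.49), Ptch1 (1.39), Ankrd37 (1.29), Cd80 (1.06), Mt2 (0.93) and Nfat5 (0.67). It was negative for Vcan (-2.72), Ccl17 (-2.11), Slc5a3 (-1.82), Ly6i (-1.65), Serpinb10 (-1.51), Ifit1 (-1.39), Slc6a12 (-1.35), Aldh1a2 (-1.28), Alox5 (-1.28), Rgs2 (-1.08), Iigp1 (-1.06), Irf7 (-1.06), Nlrc5 (-1.05), Sh2d3c (-1.05), Tlr4 (-0.91) and Hmgb2 (-0.74).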

How the results depend on the processing

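With the mouse as a replicate block, 1 call of a combined change among the genes named differed, that of Naaa (-0.16, adjusted p = 0.0453). Departures from the sum gained a call under it in Ch25h (0.455), Serpinb2 (-0.528), Cd300ld (-0.361), Ccdc80 (-0.569) and Cd86 (0.402). A random replicate block had a correlation of 0.0733. Without the filter on dim probe sets 5805 genes were higher. Leaving out replicates gave 7436 to 8131 genes called, 2843 to 3226 higher, 4593 to 4905 lower, 774 to 805 at least 2-fold higher, 748 to 837 at least 2-fold lower, 111 to 129 with both stimuli higher, 113 to 131 with both lower, 125 to 142 opposed, 43 to 53 opposed and not called, and 27 to 34 for the combination only. Departures from the sum were 1383 to 2180, the lowest without replicate 2, where fewer arrays enter the fit.

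Signs turned only in genes that were not called. Under quantile scaling Penk had 0.0843, Ccdc80 0.0699 and Sgk1 -0.017. Under cyclic loess Rgs1 had 0.165, Penk 0.189, Naaa 0.0111, Ccdc80 0.0622, Ciita 0.0476 and H2-Ab1 0.0303. With array weights Penk had 0.0329. Ranges over left-out replicates were -0.108 to 0.0925 for Penk, -0.108 to 0.0678 for Ccdc80, -0.0655 to 0.0257 for Rgs1, -0.0973 to 0.119 for Vegfa and -0.0276 to 0.0957 for Sgk1. The cause was not tested. Call changes under scaling or left-out arrays were also seen for Stfa3, Eps8, Hpgd, Slc6a6, Sgk1 and H2-Ab1. The median change of MHC class II and of dendritic cell markers turned sign under at least 1 scaling. Membership of Bnip3, Hmgb2 and Nfat5 in the combination-only genes was lost under some settings, whose limits their changes lie near.

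Folds of dim genes are understated, and signals near the top of the scale cannot show further rises.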

Other observations

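In 3 genes chosen after their values were seen, the untreated cells of the 4 mice differed more than the doubly treated cells did. Ptgs2 had 13.72, 13.75, 13.69 and 13.61 in mice 1 to 4 with 450 mOsm and LPS, against 7.37, 8.04, 7.04 and 8.04 at 290 mOsm. Il1b had 13.47, 13.57, 13.42 and 13.45 with both stimuli and 8.13, 8.78, 7.93 and 8.73 without, and Nfkbia had 12.79, 12.76, 12.68 and 12.72 with both and 10.74, 11.08, 10.51 and 11.02 without. In these 3 genes the untreated cells of mice 2 and 4 were above those of mice 1 and 3. Il33 had the wider range with both stimuli instead, with 9.73, 9.74, 8.95 and 9.45 against 4.61, 4.69, 4.69 and 4.68 without, its untreated values being dim. The doubly treated values of Ptgs2 and Il1b lie near 14.32, the highest value of any array, where differences can be compressed. The difference in spread was not tested.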
